A study of Mus musculus with 7 samples.

Results

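The genes described here encode core splicing factors and hnRNPs in laser-captured tissue of hippocampal area CA2 of the mouse. Members were all symbols that begin with Snrp, Sf3a, Sf3b, Srsf or Hnrnp, carry no pseudogene suffix and occur in both deposited gene tables, which gave 49 of the 20772 symbols that the tables share. They fall into 10 Sm and snRNP genes, 9 SF3 genes, 11 SR genes and 19 hnRNP genes. *Hnrnpa1* was listed only with the kit comparison and *Snrpa1* only with the sheared libraries, so both were left out, and *Snrpn* was not analysed here.

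Introns are removed by the spliceosome, which assembles on each pre-mRNA from small nuclear ribonucleoproteins (snRNPs). Most of these hold a ring of Sm proteins around their RNA, and the SF3A and SF3B complexes belong to the U2 snRNP, which recognises the branch site. SR proteins bind exons and favour the use of nearby splice sites, whereas many hnRNPs coat nascent RNA, often repress splice sites and also act in export, stability and translation of mRNA. Several genes of the SR and hnRNP families limit their own protein through alternative exons or retained introns that mark their mRNA for decay.

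All 7 libraries came from male Amigo2-GFP C57BL/6 mice of 6 weeks that were not treated, in which the GFP transgene marks CA2 for dissection. In the kit comparison, 2 RNA samples were each made into an unsheared NuGEN Ovation library and an unsheared Clontech SMARTer library. The PicoPure RNA had an integrity number (RIN) of 7 and the QIAGEN RNA one of 9 by the design text. A further set of 3 NuGEN libraries was made from QIAGEN RNA whose cDNA was sheared, with 16, 18 and 20 PCR cycles. According to the methods, NuGEN cDNA is primed with random hexamers and poly-dT and is depleted of ribosomal RNA late, whereas Clontech cDNA is primed with random hexamers after depletion. Each combination had 1 library, and the column labels name a different mouse for each cycle number, so cycle number and mouse cannot be told apart. Captured tissue holds more than pyramidal cells, and fewer cells of a type cannot be told apart from less RNA per cell.

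Reads assigned to genes numbered 5194138 and 4548002 in the NuGEN libraries and 10417443 and 10176710 in the Clontech libraries (PicoPure first), and 33154119 to 39158870 in the sheared libraries. Markers of CA2 were present in every library, with a summed normalized count of 13086 and 15071 in NuGEN libraries and 12038 and 13019 in Clontech libraries for the 6 of 7 listed genes in that table, none of them at 0. Oligodendrocyte markers summed to 3722 and 5896 in NuGEN libraries and 2584 and 3784 in Clontech libraries, which is lower with PicoPure RNA in both kits. Their part in the results below was not tested.

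Together the 49 genes took 0.355% of the reads in the NuGEN PicoPure library and 0.357% in the NuGEN QIAGEN library, against 0.327% and 0.339% in the Clontech PicoPure and Clontech QIAGEN libraries. Wilson 95% intervals were 0.350 to 0.360% and 0.352 to 0.363% for NuGEN and 0.323 to 0.330% and 0.335 to 0.342% for Clontech, and they cover counting error only. Most of this share came from the hnRNP genes, which took 0.219% and 0.225% of reads in NuGEN libraries and 0.180% and 0.194% in Clontech libraries. The Sm and snRNP genes took 0.0249% and 0.0306% in NuGEN libraries, against 0.0146% and 0.0180% in Clontech libraries. SF3 and SR genes went the other way. SF3 genes took 0.0540% and 0.0553% of reads in NuGEN libraries and 0.0669% and 0.0684% in Clontech libraries, and SR genes took 0.0567% and 0.0469% in NuGEN libraries and 0.0653% and 0.0587% in Clontech libraries. Summed by group, NuGEN libraries gave more of their reads to Sm and hnRNP genes and fewer to SF3 and SR genes with either RNA. Much of the SF3 shift lay in *Sf3b1*. It held 616 of 2805 and 456 of 2516 SF3 reads in NuGEN libraries (PicoPure first). In Clontech libraries it held 2606 of 6970 and 1956 of 6959. With scaling by total reads, the median log2 difference (NuGEN minus Clontech) was -0.21 over all genes tested. By group it was 0.81 for Sm and snRNP, 0.29 for hnRNP, -0.16 for SF3 and -0.45 for SR genes. In the sheared libraries the 49 genes took 0.509%, 0.490% and 0.506% of reads at 16, 18 and 20 cycles.

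The members spanned a wide range of levels. Per kilobase of transcript, the highest means of the 3 sheared libraries were 6961 normalized counts for *Hnrnpa3* and 6162 for *Hnrnpa2b1*, which encode closely related hnRNPs that bind mRNA in the nucleus and in transport granules. Next came *Hnrnpk* with 4926, a poly(C)-binding protein, and *Srsf5* with 4026. At the low end were *Sf3b5* with 241, *Srsf12* with 295 and *Hnrnph3* with 348 normalized counts per kilobase. The group medians of this level were 1722 for hnRNP, 1029 for Sm and snRNP, 830 for SR and 631 for SF3 genes. In the unsheared libraries, *Srsf5* headed the order with a mean of 598 normalized counts per kilobase, followed by *Hnrnpk* with 572 and *Hnrnpa2b1* with 561, and *Snrpg* was lowest with 27.7. *Hnrnpa3* stood only at rank 8 there. The tables were normalized separately, so ranks and not values compare between them. The order also depends on the length used, here that of 1 transcript per gene. *Hnrnpa3* has 1654 bases by that transcript and 5396 over all annotated exons, and *Hnrnpa2b1* has 1647 and 6584. For *Hnrnpab* the lengths are closer, at 2013 and 2782 bases.

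Promoter windows in RefSeq (GRCm38.p6, 250 bases before to 50 after the first listed start) were found for 43 of the 49 genes and are shown because many outside the hnRNP group share an element that binds ETS-family factors. The letters CCGGAAG occurred on either strand in 16 of the 43 windows, or 37.2%, against 9.12% of all 27025 promoters and 11.2% of those of symbols in the kit table. By group it occurred in 6 of 7 SF3, 4 of 8 Sm and snRNP, 4 of 11 SR and 2 of 17 hnRNP windows, the last being close to the share over all promoters. The GC box GGGCGG occurred in 30 windows, or 69.8%, against 35.9% of all promoters and 44.7% of those of symbols in the kit table, and CCAAT in 20, or 46.5%, against 37.9% and 38.2%. TATAAA occurred in 6 windows, or 14.0%, close to the 14.2% of all promoters and 12.9% of those of symbols in the kit table. These motifs were chosen after a wider look, and a match is a description of the letters only. Shown are the 120 bases before the start of 1 gene of each group, the gene with the highest mean normalized count in the sheared libraries (not per kilobase) among those with CCGGAAG in that stretch, with this element in capitals on either strand. *Snrpb2* lies at chr2:143062949-143063068 on the + strand, *Sf3b2* at chr19:5295458-5295577 on the - strand, *Srsf5* at chr12:80945379-80945498 on the + strand and *Hnrnpf* at chr6:117900220-117900339 on the + strand.
*Snrpb2*: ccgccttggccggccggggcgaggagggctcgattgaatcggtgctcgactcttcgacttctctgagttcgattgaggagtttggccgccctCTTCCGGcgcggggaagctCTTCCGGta
*Sf3b2*: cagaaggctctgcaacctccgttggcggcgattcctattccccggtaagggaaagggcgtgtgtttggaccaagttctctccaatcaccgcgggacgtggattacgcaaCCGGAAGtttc
*Srsf5*: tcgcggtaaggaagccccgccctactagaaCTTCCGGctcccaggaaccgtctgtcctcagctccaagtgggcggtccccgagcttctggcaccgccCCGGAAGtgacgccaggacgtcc
*Hnrnpf*: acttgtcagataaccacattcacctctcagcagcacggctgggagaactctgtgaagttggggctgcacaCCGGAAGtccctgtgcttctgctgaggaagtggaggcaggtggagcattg
The *Snrpb2* and *Srsf5* stretches hold the element at 2 places each, in *Snrpb2* both in the orientation opposite to the gene and in *Srsf5* 1 in each orientation.

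Next, the NuGEN libraries were compared with the Clontech libraries of the same RNA, to ask how the library chemistry changed the reading of these genes. Of the 49 genes, 14 were higher in NuGEN libraries and 4 lower at an adjusted p under 0.05, whereas 10.8% of all 13048 genes tested were called higher and 10.5% lower. Among tested genes with a mean of at least 100 normalized counts, 15.4% were called higher and 16.7% lower. The median log2 difference over the 49 genes was 0.44, against -0.03 over all genes tested. Values are differences of log2(normalized count + 1) with the standard error of the fit, which had 1 residual degree of freedom and drew its spread from all genes. When counts were scaled by total reads, 13 genes were called higher and 7 lower, beside 1047 and 1965 of all 13048 genes tested. The median over all genes then moved to -0.21. The plot of kit differences shows every member, and the bar plots of normalized counts show the called genes in the 4 libraries.

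**Figure D1:**
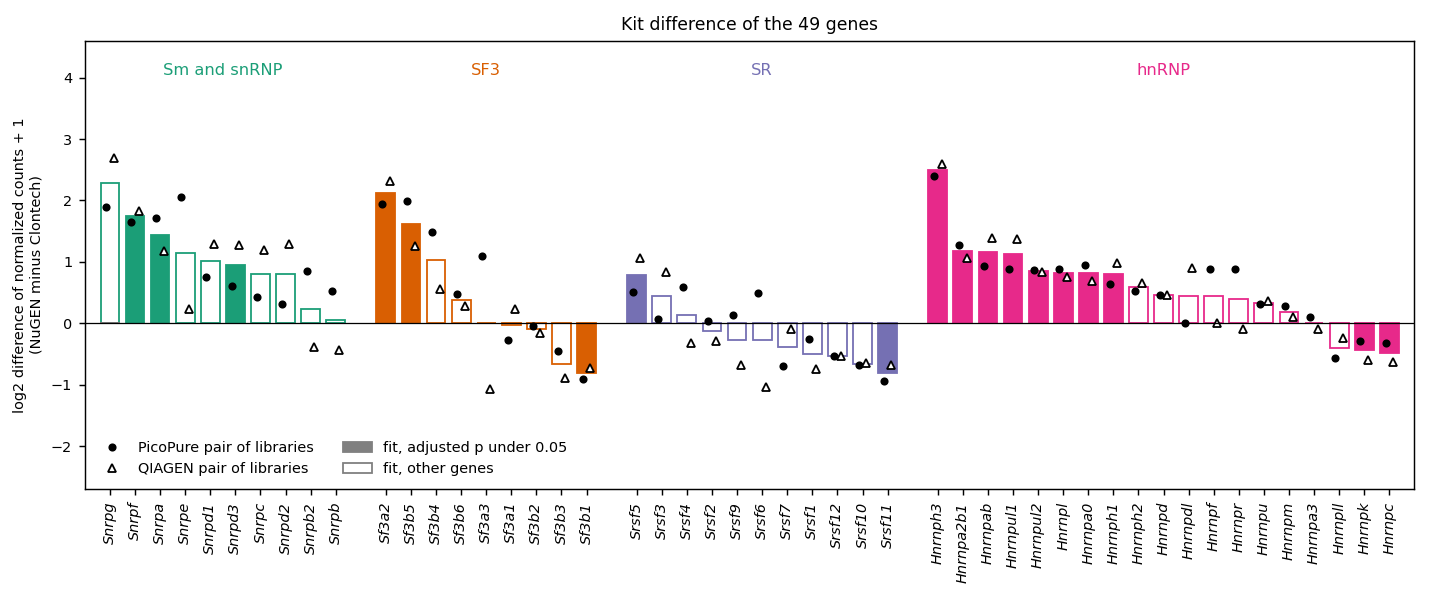
Log2 difference of normalized counts + 1 (NuGEN minus Clontech) for each of the 49 genes by group, as fitted (bars, filled where the adjusted p was under 0.05) and for the PicoPure pair (black dots) and the QIAGEN pair (open triangles) of libraries. All 10 Sm and snRNP bars lie above 0 and 8 of the 11 SR bars lie below 0, though *Snrpb* and *Srsf4* turn negative with scaling by total reads.

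Of the Sm and snRNP genes, 3 of 10 were called higher in NuGEN libraries and none lower, beside 10.8% and 10.5% of all genes tested. All 10 fitted differences were positive (*Snrpb* turned negative with scaling by total reads), and their median was 0.98. At an unadjusted p under 0.05 in limma, 6 of the 10 were higher and none lower, while 32.5% of all genes passed in 1 direction or the other. In 8 of 10 genes both NuGEN libraries lay above both Clontech libraries, as did 27.0% of all genes tested. *Snrpf* (GRCm38 chr10:93583029-93589706, - strand) encodes a subunit of the Sm ring. It had 192 and 122 normalized counts in the NuGEN PicoPure and NuGEN QIAGEN libraries, against 60.8 and 33.4 in the Clontech PicoPure and Clontech QIAGEN libraries. The groups did not overlap, and the log2 difference was 1.74 ± 0.53 (SE, adjusted p = 0.014). *Snrpa*, which encodes the protein that binds a stem-loop of U1 RNA, had 455 and 530 normalized counts in NuGEN libraries and 138 and 235 in Clontech libraries. Its difference was 1.44 ± 0.27 (adjusted p = 0.000112). *Snrpd3*, another ring subunit, had 315 and 583 in NuGEN libraries and 205 and 241 in Clontech libraries, a difference of 0.94 ± 0.27 (adjusted p = 0.00946).

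The other Sm and snRNP genes did not pass. *Snrpg*, the ring subunit with the lowest counts, had 28.1 and 71.6 normalized counts in NuGEN libraries and 6.83 and 10.3 in Clontech libraries, a difference of 2.29 ± 0.99 (adjusted p = 0.0992). *Snrpd2* had 184 and 295 in NuGEN libraries and 147 and 120 in Clontech libraries (0.81 ± 0.36, adjusted p = 0.112). *Snrpb*, which encodes the ring subunits B and B′, had 178 and 122 in NuGEN libraries and 123 and 165 in Clontech libraries. Its difference of 0.05 ± 0.40 had opposite signs in the 2 pairs, with 0.53 in the PicoPure pair and -0.44 in the QIAGEN pair. *Snrpb2*, which encodes a protein of the U2 snRNP, had the same pattern, with 0.85 in the PicoPure pair and -0.38 in the QIAGEN pair.

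SF3 genes were divided, with 2 of 9 called higher, 1 called lower and a median difference of 0.01, beside 10.8% higher and 10.5% lower of all genes tested. *Sf3a2* (chr10:80798198-80804924, + strand), which encodes a subunit of SF3A, had 271 and 386 normalized counts in NuGEN libraries, against 70.1 and 77.1 in Clontech libraries. It had the largest difference of the group, 2.12 ± 0.38 (adjusted p = 4.67e-05). *Sf3b5*, a small subunit of SF3B, had 180 and 185 in NuGEN libraries and 44.7 and 76.5 in Clontech libraries (1.62 ± 0.47, adjusted p = 0.0106). In contrast, *Sf3b1* (chr1:54985169-55027481, - strand), which encodes the large subunit that clasps the branch site, had 865 and 760 in NuGEN libraries and 1618 and 1257 in Clontech libraries. Both NuGEN libraries lay below both Clontech libraries, and the difference was -0.81 ± 0.16 (adjusted p = 0.000205). *Sf3b2*, the SF3 transcript with the most counts per kilobase, had 1299 and 1448 in NuGEN libraries and 1335 and 1617 in Clontech libraries (-0.10 ± 0.15, adjusted p = 0.693). *Sf3a1* had 520 and 726 in NuGEN libraries and 631 and 616 in Clontech libraries, a difference of -0.02 ± 0.20 whose sign turned positive with TMM scaling, edgeR and exon pieces.

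Among the SR genes, 1 of 11 was called higher and 1 lower, near the 10.8% and 10.5% of all genes tested. Their median was -0.27, and 8 of the 11 fitted differences were negative (and *Srsf4* too with scaling by total reads). Of all 13048 genes tested, 6732 had a negative difference. *Srsf5* (chr12:80945504-80950507, + strand) had 1167 and 1079 normalized counts in NuGEN libraries, against 823 and 515 in Clontech libraries. It was the SR gene that rose, by 0.78 ± 0.18 (adjusted p = 0.00115). *Srsf11*, an SR-related protein of nuclear speckles, had 359 and 248 in NuGEN libraries and 690 and 398 in Clontech libraries (-0.81 ± 0.24, adjusted p = 0.0112). *Srsf1*, the founding member of the family, had 501 and 337 in NuGEN libraries and 597 and 566 in Clontech libraries (-0.50 ± 0.22, adjusted p = 0.104). *Srsf7*, which takes part in export of spliced mRNA, had 177 and 258 in NuGEN libraries and 287 and 275 in Clontech libraries (-0.39 ± 0.30, adjusted p = 0.395). In both of these genes the NuGEN values lay below the Clontech values without passing the test. *Srsf3*, the smallest SR protein, had 239 and 293 in NuGEN libraries and 228 and 164 in Clontech libraries (0.45 ± 0.32, adjusted p = 0.345). *Srsf2*, which resides in nuclear speckles, had 376 and 358 in NuGEN libraries and 366 and 438 in Clontech libraries (-0.12 ± 0.24, adjusted p = 0.773). *Srsf4* had 425 and 373 in NuGEN libraries and 282 and 465 in Clontech libraries, and *Srsf6* had 334 and 142 in NuGEN libraries and 236 and 293 in Clontech libraries. The differences of the last 2 genes had opposite signs in the PicoPure and QIAGEN pairs. In all, both NuGEN libraries lay above both Clontech libraries in 2 SR genes and below them in 5, beside 27.0% and 27.9% of all genes tested.

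**Figure D2:**
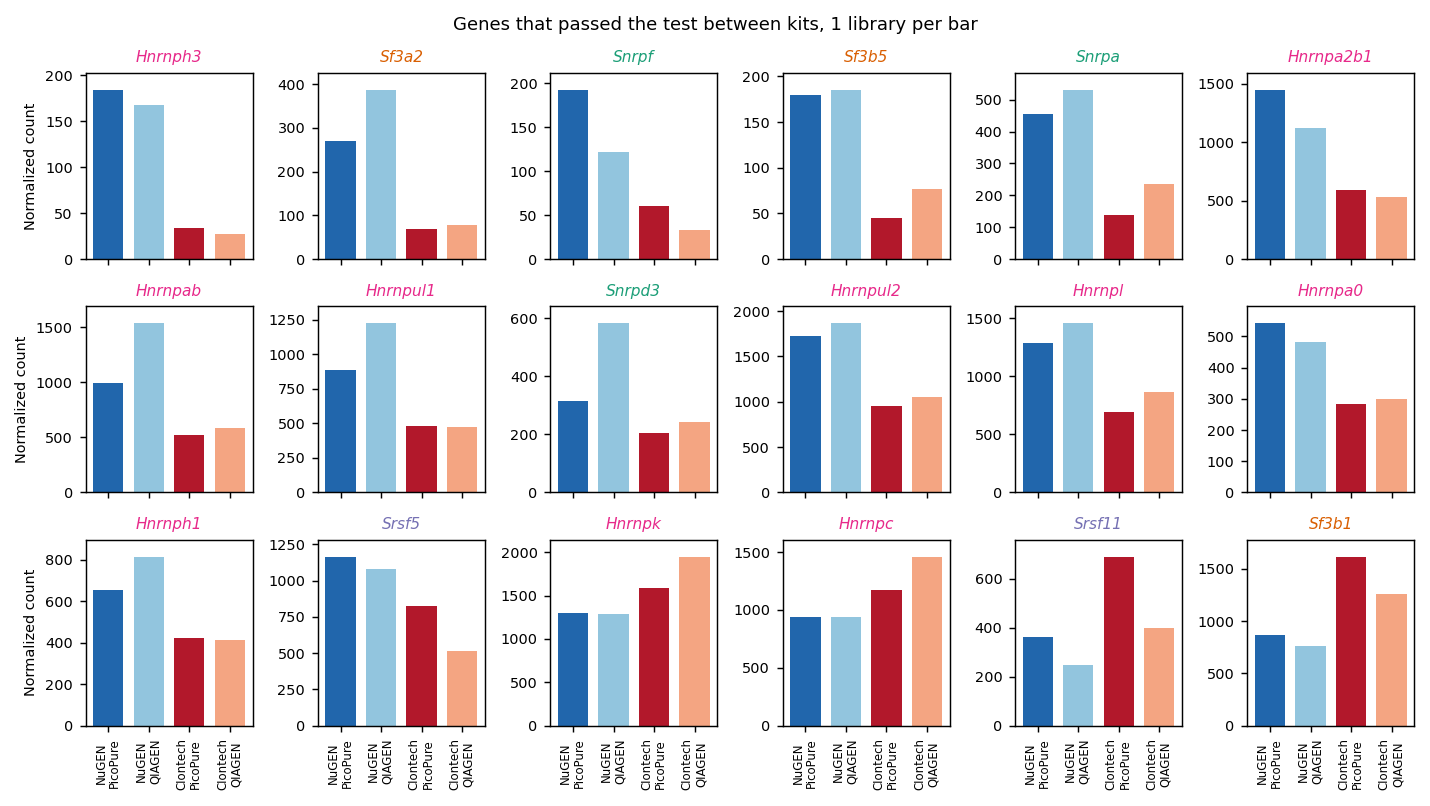
Normalized counts of the 18 genes that passed the test between kits, with 1 bar for each library (NuGEN in blue, Clontech in red, PicoPure darker and QIAGEN lighter) and title colours by group. The NuGEN bars lie above both Clontech bars in 14 genes, from *Hnrnph3* to *Srsf5*, and below both in *Hnrnpk*, *Hnrnpc*, *Srsf11* and *Sf3b1*.

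The hnRNP genes held most of the calls, with 8 of 19 higher in NuGEN libraries, 2 lower and a median difference of 0.46. Of all genes tested 10.8% were called higher and 10.5% lower, and of those with a mean of at least 100 it was 15.4% and 16.7%. The median standard error was 0.19 for hnRNP genes and 0.44 for Sm and snRNP genes. The counts of calls thus do not order the groups by size of difference. *Hnrnph3* (chr10:63014664-63024217, - strand) encodes a G-run binding protein of the F and H family and had the largest difference of all 49 genes. It had 184 and 168 normalized counts in NuGEN libraries and 34.1 and 27.0 in Clontech libraries (2.50 ± 0.56, adjusted p = 0.000927). Its paralog *Hnrnph1* had 656 and 816 in NuGEN libraries and 421 and 413 in Clontech libraries (0.81 ± 0.21, adjusted p = 0.00348). Another paralog, *Hnrnph2*, had 563 and 595 in NuGEN libraries and 392 and 376 in Clontech libraries, and its difference of 0.59 ± 0.22 fell just short (adjusted p = 0.0501). In these 3 paralogs both NuGEN libraries lay above both Clontech libraries, and 2 of them passed the test. *Hnrnpf*, of the same family, did not share this, with 146 and 71.6 in NuGEN libraries and 78.8 and 71.4 in Clontech libraries (0.44 ± 0.52, adjusted p = 0.600).

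Of the A and B type hnRNPs, *Hnrnpa2b1* (chr6:51460932-51469894, - strand) had 1446 and 1123 normalized counts in NuGEN libraries, against 594 and 534 in Clontech libraries (1.18 ± 0.18, adjusted p = 2.26e-06). *Hnrnpab*, which encodes an RNA-binding protein of mRNA transport granules, had 994 and 1538 in NuGEN libraries and 519 and 588 in Clontech libraries (1.16 ± 0.18, adjusted p = 4.47e-06). *Hnrnpa0* had 542 and 483 in NuGEN libraries and 282 and 300 in Clontech libraries (0.81 ± 0.24, adjusted p = 0.0115). *Hnrnpa3*, close in sequence to *Hnrnpa2b1*, did not differ detectably, with 757 and 700 in NuGEN libraries and 701 and 744 in Clontech libraries (0.01 ± 0.19).

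*Hnrnpul1* had 883 and 1224 normalized counts in NuGEN libraries and 480 and 471 in Clontech libraries (1.13 ± 0.19, adjusted p = 2.07e-05), and *Hnrnpul2* had 1727 and 1864 in NuGEN libraries and 948 and 1049 in Clontech libraries (0.85 ± 0.15, adjusted p = 4.09e-05). Both are relatives of *Hnrnpu*, the scaffold-binding hnRNP that had the most counts of the 49 genes in the unsheared libraries. *Hnrnpu* itself had 1940 and 1927 in NuGEN libraries and 1565 and 1497 in Clontech libraries (0.34 ± 0.14, adjusted p = 0.0816). *Hnrnpl*, which binds CA-rich sequences, had 1286 and 1458 in NuGEN libraries and 696 and 868 in Clontech libraries (0.82 ± 0.16, adjusted p = 0.000237). The 2 genes that fell were *Hnrnpk* and *Hnrnpc*. *Hnrnpk* had 1296 and 1293 in NuGEN libraries and 1583 and 1951 in Clontech libraries (-0.44 ± 0.15, adjusted p = 0.0262). *Hnrnpc*, which binds uridine tracts and packages nascent transcripts, had 937 and 941 in NuGEN libraries and 1170 and 1461 in Clontech libraries (-0.48 ± 0.16, adjusted p = 0.029).

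Over the 49 genes, both NuGEN libraries lay above both Clontech libraries in 25 and below them in 9, beside 27.0% and 27.9% of all genes tested, and the sign was the same in both pairs in 39. Of the 18 calls, those of *Snrpa*, *Sf3a2*, *Sf3b1*, *Hnrnpa2b1*, *Hnrnpab*, *Hnrnph3*, *Hnrnpl*, *Hnrnpul1* and *Hnrnpul2* held in all 10 alternatives that kept the 4 libraries, those of *Snrpf*, *Sf3b5*, *Srsf5* and *Hnrnph1* were lost only with the RNA term left out, and those of *Snrpd3*, *Srsf11*, *Hnrnpa0*, *Hnrnpk* and *Hnrnpc* were also lost with DESeq2, among others. With any 1 library left out, 1 kit was left with 1 library and the RNA term had to be dropped. The 18 calls thus rest on all 4 libraries together, and only the differences are read from such fits. All 18 kept their sign, with a range of 0.45 to 1.12 for *Srsf5* and -1.20 to -0.41 for *Srsf11*.

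Shorter members tended to have larger kit differences. Over the 49 genes Spearman's rho between transcript length and log2 difference was -0.434, as a description, and over 12603 tested genes with a length it was -0.297, the points sharing the same 4 libraries. The shortest genes, 16 with 597 to 1915 bases, had a median difference of 0.81, and 14 of them were positive. The 17 of 2000 to 2683 bases had a median of 0.45, and the 16 of 2752 to 7640 bases had a median of -0.19, with 6 positive. The median transcript had 1108 bases in Sm and snRNP genes, 2535 in hnRNP, 2618 in SR and 3222 in SF3 genes, so the group with the lowest median difference, SR, was not the longest. Within groups rho was -0.442 for Sm and snRNP, -0.567 for SF3, -0.682 for SR and -0.263 for hnRNP genes. With GC content of the transcript, rho was 0.300 over the 49 genes and 0.294 over the tested genes. The part of length or GC content in the differences between groups was not tested.

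**Figure D3:**
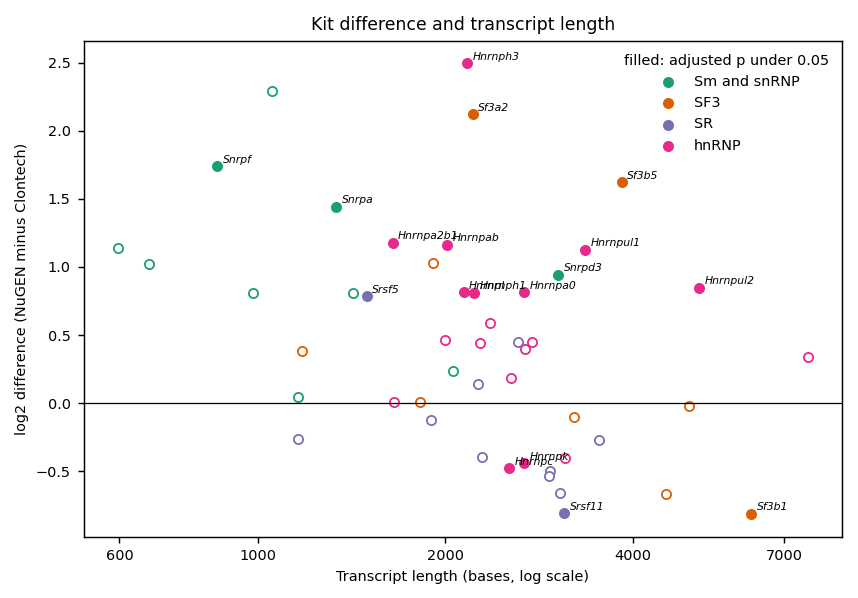
Log2 difference (NuGEN minus Clontech) against transcript length in bases (log scale) for the 49 genes, coloured by group and filled where the adjusted p was under 0.05. Of the 16 shortest genes 14 lie above 0, and of the 16 longest 6 do, namely *Hnrnpu*, *Hnrnpul2*, *Sf3b5*, *Hnrnpul1*, *Snrpd3* and *Hnrnpdl*.

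The position of the reads along the genes was read from the table of exon pieces, whose numbered exons run from the 5′ end. With at least 100 exon counts in every library and at least 3 numbered exons, 42 members and 6741 genes in all could be used. The median share of a member's exon counts in exon 1 was 24.4% and 25.5% in NuGEN libraries, against 5.34% and 5.97% in Clontech libraries. In 32 of the 42 members both NuGEN shares lay above both Clontech shares, as in 64.8% of all genes used. The last exon held 12.2% and 11.6% of counts in NuGEN libraries and 16.5% and 17.7% in Clontech libraries at the median, and the NuGEN shares lay below the Clontech shares in 21 members and above them in 8, beside 40.5% and 18.3% of all genes used. Exon 1 thus took more of the NuGEN exon counts in most members. A read counts once for every piece it covers. The members had a median of 2.55 and 2.6 exon counts per gene read in NuGEN libraries and 1.88 and 1.99 in Clontech libraries. The shares therefore hold the number of pieces covered as well as the position of the reads. The paper ascribes a slight 5′ bias of its NuGEN libraries to the lack of shearing. The part of either in these shares was not tested.

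In SR genes the exon 1 share was above both Clontech libraries in both NuGEN libraries in 9 of 10, and the last exon share was below in 7 of 10. Of all genes used, 64.8% and 40.5% did the same. Exon 1 of *Srsf1* held 28.4% and 46.4% of counts in NuGEN libraries, against 1.83% and 0.112% in Clontech libraries, and its last exon, exon 3, held 50.1% and 32.6% in NuGEN libraries, against 84.5% and 91.2% in Clontech libraries. For *Srsf3* the last exon, exon 4, held 9.47% and 5.12% in NuGEN libraries and 40.4% and 51.2% in Clontech libraries. Exon 1 of *Srsf5* held 43.4% and 49.4% in NuGEN libraries and 9.14% and 12.1% in Clontech libraries. In *Srsf3* and *Srsf5* the exon with the most counts differed between kits, whereas in *Srsf1* it was exon 3 in the NuGEN PicoPure library and in both Clontech libraries. Elsewhere, exon 6 of *Hnrnpa2b1* held 19.2% and 20.2% of counts in NuGEN libraries, whereas it held 0.114% and 0.0% in Clontech libraries. Exon 1 of *Hnrnpul2* held 35.2% and 42.6% in NuGEN libraries and 4.66% and 5.99% in Clontech libraries, and that of *Snrpb* 48.8% and 64.3% in NuGEN libraries and 12.7% and 8.37% in Clontech libraries. *Snrpc*, a protein of the U1 snRNP, was the 1 member in the other direction, which 3.83% of all genes used shared, with 14.8% and 24.8% of counts in exon 1 in NuGEN libraries and 34.0% and 47.8% in Clontech libraries. Exon 6 of *Hnrnpa2b1* was picked after its values were seen.

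**Figure D4:**
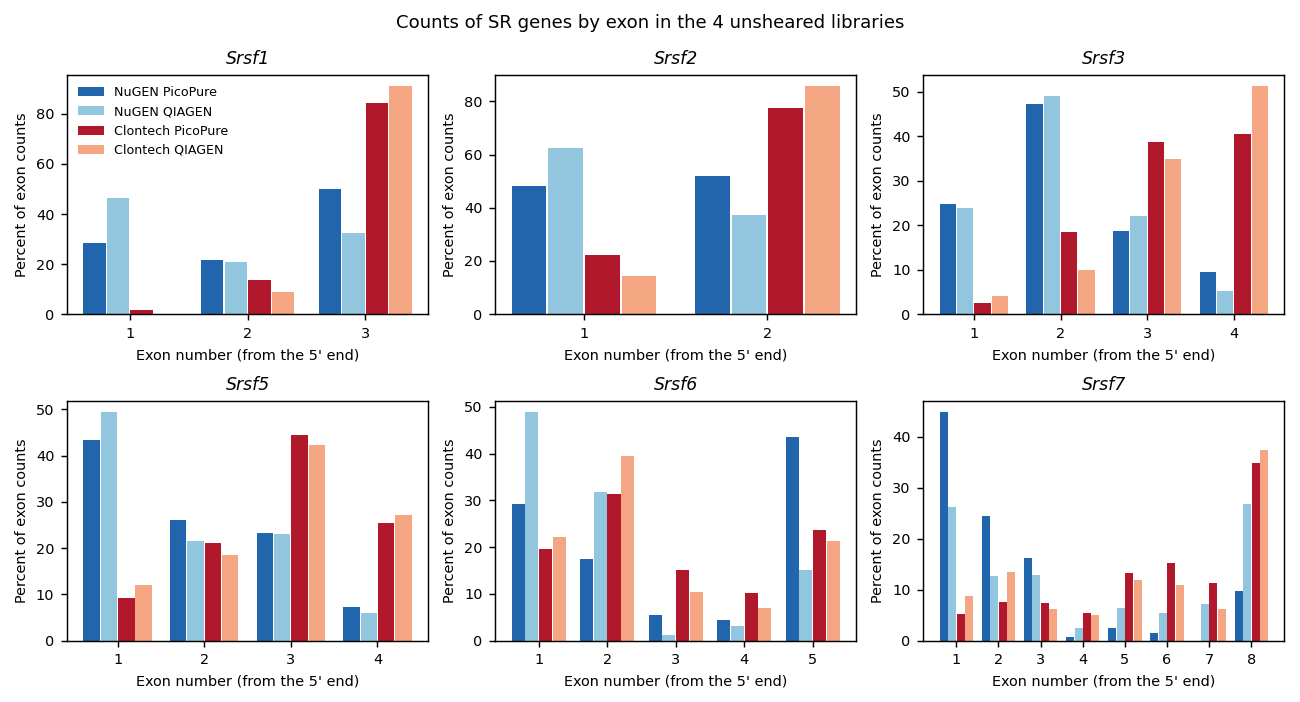
Percent of a gene's exon counts in each numbered exon (from the 5′ end) for 6 SR genes in the 4 unsheared libraries, 1 bar for each library. In *Srsf1* the last exon holds 50.1% and 32.6% of counts in the NuGEN libraries, against 84.5% and 91.2% in the Clontech libraries.

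Other spliceosome genes served as a wider view of the pathway. Of 74 tested genes on a list of 76, 12 were higher in NuGEN libraries and 8 lower, with a median difference of -0.03. These are 16.2% and 10.8% of the list, near the 10.8% and 10.5% of all genes tested and the 15.4% and 16.7% of those with a mean of at least 100. *Lsm7*, a subunit of the LSm ring that binds U6 RNA, had 209 and 257 normalized counts in NuGEN libraries and 18.0 and 24.4 in Clontech libraries (3.40 ± 0.57, adjusted p = 1.84e-05), but it was the only 1 of 8 tested LSm genes that passed. *Snrnp70*, the gene of the U1 snRNP protein that contacts SR proteins, had 1342 and 1059 in NuGEN libraries and 574 and 300 in Clontech libraries (1.52 ± 0.19, adjusted p = 1.01e-07). *U2surp*, which is associated with the U2 snRNP, had 368 and 398 in NuGEN libraries and 894 and 912 in Clontech libraries (-1.24 ± 0.20, adjusted p = 9.73e-06). *Prpf8*, the large protein at the core of the spliceosome, had 1382 and 1353 in NuGEN libraries and 2114 and 2019 in Clontech libraries (-0.60 ± 0.14, adjusted p = 0.00151). Of 12 snRNP assembly genes, none was called in either direction, with 3 at an unadjusted p under 0.05.

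To ask whether RNA quality changed the reading of the same genes, PicoPure RNA was compared with QIAGEN RNA within both kits. None of the 49 genes passed in either direction, while 1.45% of all genes were called higher and 0.314% lower. At an unadjusted p under 0.05, 2 were higher and 3 lower in limma, beside 12.5% of all genes in either direction, and DESeq2 and edgeR called none after adjustment. The median difference was 0.29 for SR genes, -0.13 for hnRNP genes, -0.22 for SF3 genes and -0.34 for Sm and snRNP genes, and -0.02 over all genes. The signs were the same in both kits in 28 genes and were opposite in 21. Both PicoPure libraries lay above both QIAGEN libraries in 1 gene, *Hnrnpf*, and below them in 4, *Hnrnpll*, *Hnrnpm*, *Sf3b2* and *Sf3b6*, beside 13.1% and 13.0% of all genes.

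*Srsf11* came closest to passing. It had 359 and 690 normalized counts with PicoPure RNA in NuGEN and Clontech libraries, against 248 and 398 with QIAGEN RNA, a difference of 0.66 ± 0.24 (adjusted p = 0.193). *Snrpf* had 192 and 60.8 with PicoPure RNA and 122 and 33.4 with QIAGEN RNA (0.75 ± 0.53, adjusted p = 0.616). *Srsf6* had 334 and 236 with PicoPure RNA and 142 and 293 with QIAGEN RNA, so that its difference was 1.23 in NuGEN libraries and -0.31 in Clontech libraries (adjusted p = 0.618 for the fit). In *Srsf11* and *Snrpf* the value with PicoPure RNA was above that with QIAGEN RNA within each kit, but the ranges over both kits overlapped. In the other direction, *Snrpc* had 112 and 83.2 with PicoPure RNA and 247 and 107 with QIAGEN RNA (-0.75 ± 0.43, adjusted p = 0.495). *Sf3b6*, the SF3B subunit that contacts the branch site adenosine, had 154 and 110 with PicoPure RNA and 237 and 193 with QIAGEN RNA (-0.71 ± 0.36, adjusted p = 0.424). *Hnrnpll*, a regulator of alternative exons in lymphocytes, had 135 and 200 with PicoPure RNA and 237 and 281 with QIAGEN RNA (-0.65 ± 0.33, adjusted p = 0.411). The PicoPure values of *Sf3b6* and *Hnrnpll* lay below both QIAGEN values, and those of *Snrpc* overlapped them. On the wider list, *Clk1*, a kinase that phosphorylates SR proteins, had 362 and 420 with PicoPure RNA and 183 and 173 with QIAGEN RNA (1.13 ± 0.29, adjusted p = 0.0261), and *Rbm39*, an SR-related cofactor, had 826 and 1371 with PicoPure RNA and 545 and 847 with QIAGEN RNA (0.65 ± 0.17, adjusted p = 0.0408). They were the 2 of 74 genes called higher, and none was called lower, but with any 1 library left out no gene of the whole table was called. The 2 genes called higher are 2.70% of the list, beside 1.45% of all genes tested. Among better-counted genes (mean normalized count of 100 or more) the share was 2.44%. Extraction kit, RNA integrity and the captured tissue cannot be told apart here. The methods describe PicoPure for CA1 captures while the labels name CA2. Summed CA1 markers were 691 and 610 with PicoPure RNA and 516 and 365 with QIAGEN RNA, and summed CA2 markers 13086 and 12038 with PicoPure RNA and 15071 and 13019 with QIAGEN RNA. Their part in these differences was not tested.

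**Figure D5:**
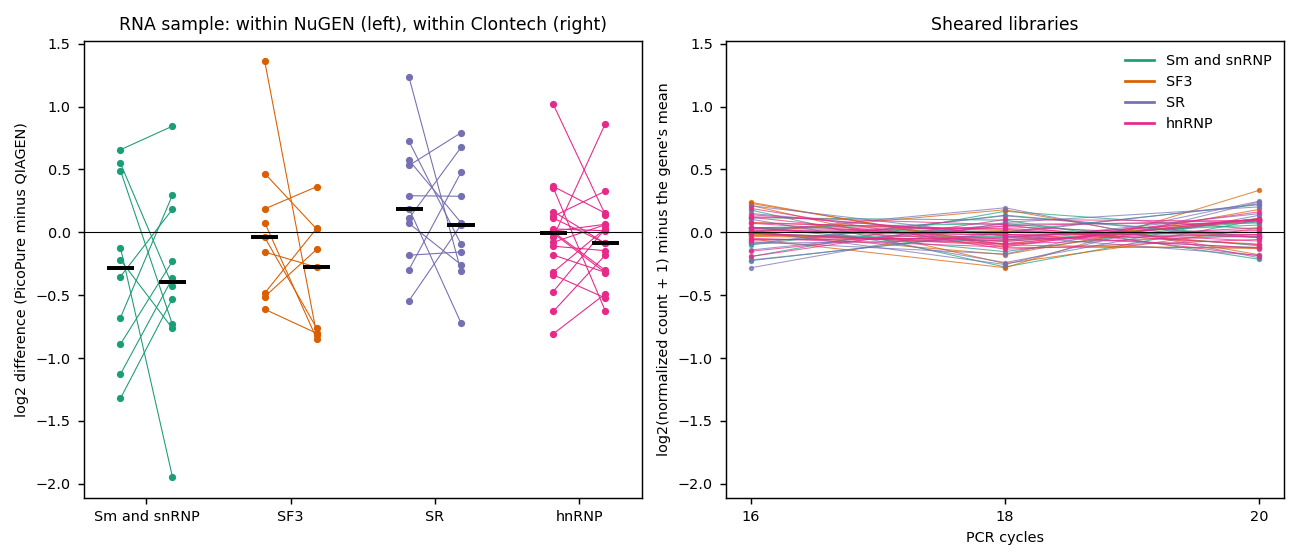
Left, log2 difference between PicoPure and QIAGEN RNA within NuGEN libraries (left point) and within Clontech libraries (right point) of each gene by group, with black bars at the group medians. Right, log2(normalized count + 1) minus the gene's mean in the 3 sheared libraries at 16, 18 and 20 PCR cycles, on the same scale. The median of SR genes was 0.19 within NuGEN and 0.06 within Clontech, and the sheared libraries lie close together.

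The sheared libraries asked whether more PCR cycles changed the counts. None of the 49 genes passed for a slope per cycle, while 0.044% of all genes were called rising and 0.0733% falling. At an unadjusted p under 0.05, 2 members had a positive and 2 a negative slope in limma, beside 4.55% of all genes in either direction, and DESeq2 and edgeR called none after adjustment. The ratio of the highest to the lowest of the 3 libraries ran between 1.02 for *Hnrnpf* and 1.53 for *Sf3a1*, with a median of 1.19. Counts were ordered upward over the 3 cycle numbers in 8 genes and downward in 11, beside 15.7% and 16.5% of all genes. *Srsf9* had 786, 1009 and 1099 normalized counts at 16, 18 and 20 cycles, the steepest positive slope at 0.12 ± 0.07 per cycle (adjusted p = 0.9997). *Snrpb2* had 1083, 1270 and 1475 and *Srsf12* had 738, 856 and 1006 at the same cycles. *Srsf4* had 1470, 1244 and 1118, the steepest negative slope at -0.10 ± 0.06 per cycle. *Sf3b4* had 1587, 1261 and 1238, and *Sf3b6* had 1493, 1164 and 1165. The spread between these libraries holds the mouse as well as the cycle number, and summed choroid plexus markers were 523, 3276 and 591 at 16, 18 and 20 cycles; their part in the slopes was not tested.

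Set side by side without a test, the sheared libraries gave 0.509%, 0.490% and 0.506% of their reads to the 49 genes, against 0.357% in the unsheared NuGEN QIAGEN library. The totals behind these shares are unlike, with 22814 symbols for the sheared libraries and 41567 for the kit comparison. Ribosomal RNA and mitochondrial symbols took 1.70%, 1.87% and 2.06% of reads in the sheared libraries and 5.07% in the NuGEN QIAGEN library. A gene's mean share of reads in sheared libraries was divided by its share in the unsheared NuGEN QIAGEN library. This ratio was 1.55 at the median of the 49 genes. No value over all genes stands beside this ratio, so it cannot be read as particular to the 49 genes. It was highest for *Hnrnpf* at 4.36, *Hnrnpa3* at 3.53 and *Sf3a3* at 3.35, and lowest for *Snrpd3* at 0.43, *Sf3a2* at 0.61 and *Hnrnpul1* at 0.63. The ratios of *Hnrnpf* and *Sf3a3* rest on only 43 and 44 reads in the NuGEN QIAGEN library, where the NuGEN PicoPure library had 104 and 135. These genes differ in function and group, with SF3 and hnRNP genes at both ends. Mice, sequencing run and shearing differed together, and the methods name different GENCODE releases for different analyses without tying either to the sheared table.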

How the data were processed

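RNA-Seq of 7 libraries was analysed from 3 deposited tables. According to the submitters' notes and the methods, the authors used STAR 2.4.1d with the mm10 genome, featureCounts for assignment to genes and DESeq2 for normalization. The deposited signal values are normalized counts, meaning reads divided by a size factor per library. Of the values, 100% were whole multiples of 1 read within 0.01 read, and this gave the reads back. Exon pieces count a read once for every piece covered. Symbols turned into dates (26, with 0.251% of reads of the sheared table) and ribosomal RNA and mitochondrial symbols were left out.

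limma 3.58.1 (lmFit, eBayes with a trend) in R 4.3.3 was run on log2(normalized count + 1). A gene was tested if 2 or more libraries of its table had 10 or more normalized counts, which all 49 members did in both tables, and p-values were adjusted by Benjamini-Hochberg over all genes tested, with a threshold of 0.05. Kit and RNA sample were additive terms, and the cycle number was fitted as a slope. The spread came from 1 residual degree of freedom and, for the kit and RNA fit, 36.2 prior degrees of freedom from other genes (infinite for the cycles). P-values therefore rest mostly on a spread between these libraries that is pooled over genes, and for the cycles wholly so. They measure no spread beyond these libraries. Alternatives were DESeq2 1.42.0, edgeR 4.0.16 with TMM, other scalings, filters and pseudocounts, exon pieces, the other term left out and each library left out. On the recovered reads, DESeq2 called 12 members higher and 1 lower between kits, beside 1093 and 860 of all 13048 genes tested. With edgeR it was 14 and 2 members, beside 1374 and 1103 of all genes tested. Positions, GC content and lengths (the transcript of middle length among basic protein-coding transcripts) were read from GENCODE vM21 (GRCm38). Summaries and plots used Python 3.11.15, pandas 2.3.3 and matplotlib 3.10.9.

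Genes were named by rule: those that passed, up to 15 in each direction, the 3 members of each group with the highest counts, the 3 largest differences in a direction with fewer than 3 calls among members with a mean of at least 100, *Snrpb*, and *Srsf1* to *Srsf7*. Further members (*Snrpg*, *Hnrnph2*, *Hnrnpf*, *Hnrnpa3*, those at the ends of a range) and the genes named from the wider spliceosome list were picked after their values were seen. The members, lists and motifs were chosen with earlier results of these data known.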

Additional observations from a re-analysis of the deposited data

Results flagged for a closer look

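The kit difference of SR genes had a median of 0.04 in the PicoPure pair of libraries and -0.54 in the QIAGEN pair, which is 0.58 apart on the log2 scale. It was picked out because the 2 pairs lie on opposite sides of 0. The RNA difference of *Srsf6* was 1.23 within NuGEN libraries and -0.31 within Clontech libraries, 1.54 apart, and was picked out for the same reason. Its last exon, exon 5, held 43.5% of exon counts in the NuGEN PicoPure library, against 15.2%, 23.6% and 21.2% in the NuGEN QIAGEN, Clontech PicoPure and Clontech QIAGEN libraries. Neither difference between pairs was tested, since each rests on 1 library for each combination.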

How the results depend on the processing

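Of the alternative values of the medians and counts of calls, 203 were classed as unchanged, 13 as weaker, 11 as moved and 1 as stronger. Of the alternative values of single named genes, 441 were classed as unchanged, 93 as weaker, 16 as reversed, 4 as moved and 2 as stronger. For a median, a change of sign near 0 could count as unchanged. The kit median of SF3 genes was 0.01 as fitted and -0.16 with scaling by total reads. The number of members called higher between kits was 14 in the fit as reported and 8 with the RNA term left out, beside 1414 and 691 of all 13048 genes tested. The number called lower was 4, against 7 with scaling by total reads, 2 with edgeR, 1 with DESeq2, 2 with exon pieces and 1 with the RNA term left out. Over all genes tested, 1370 were called lower in the fit as reported. In the same order as above, the alternatives called 1965, 1103, 860, 652 (of 12822 tested with exon pieces) and 454 of all genes lower. With exon pieces the median of Sm and snRNP genes was 1.48 and that of hnRNP genes 0.81, while the median over all genes was 0.12. Leaving out each library in turn, with the other term dropped, gave 0 to 0 genes called higher and 0 to 0 called lower between kits. Kit medians then ran between 0.67 and 1.29 for Sm and snRNP, -0.0174 and 0.42 for SF3, -0.57 and -0.0894 for SR, and 0.47 and 0.62 for hnRNP genes. RNA medians ran between -0.96 and 0.16 for Sm and snRNP, -0.34 and 0.0251 for SF3, -0.0482 and 0.17 for SR, and -0.38 and 0.29 for hnRNP genes. The slope median of SF3 genes ran between -0.0857 and 0.0783 per cycle. The sign of *Sf3a1* turned with TMM scaling (0.0154), edgeR (0.0164) and exon pieces (0.17), that of *Snrpb* and *Srsf4* with scaling by total reads (-0.13 and -0.0361) and that of *Sf3b2* with exon pieces (0.21). With a library left out, kit differences ran between -0.26 and 0.22 for *Sf3a1*, -0.24 and 0.0391 for *Sf3b2*, -0.23 and 0.32 for *Snrpb*, -0.25 and 0.00352 for *Srsf2*, -0.22 and 0.50 for *Srsf4* and -0.89 and 0.34 for *Srsf6*. RNA differences ran between -0.17 and 1.67 for *Snrpf* and -0.0601 and 0.98 for *Srsf6*. A fit without 1 library has fewer libraries and assumes that a lone library varies like the others; other causes were not tested. The fit with the RNA sample as a term is already a paired analysis of the kits over both RNA samples, and the values with the RNA term left out are those without pairing. Replicate numbers gave no further pairing, since each combination of kit and RNA has 1 library.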
